A study of Rattus norvegicus with 12 samples.

Results

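Transcripts of the septin genes were followed through an immunoprecipitation of Staufen2, which binds double-stranded RNA and is part of the RNA transport particles of neurons. Septins were taken as every probe whose deposited definition contains the word septin, on all arrays. Of 22226 probes, 7 met this rule. They belong to 6 of the 21699 genes or gene names on the array, since Septin9 has a probe for each of 2 transcript variants. The probes are ILMN_57194 for Septin1, ILMN_53950 for Septin6, ILMN_56430 for Septin7 (symbol 7-Sep in the deposited table), ILMN_69703 for Septin8, ILMN_52171 and ILMN_68343 for variants 1 and 2 of Septin9 (symbol 9-Sep), and ILMN_55924 for Septin10.

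Cell extracts were made from whole brains of Sprague Dawley rat embryos at E17-E18, although the tissue label reads P18. A polyclonal rabbit antibody against Staufen2 was used for 6 samples and preimmune antibody for the other 6. The co-precipitated RNA was amplified, biotin-labelled and hybridised to 1 rat Illumina bead array per sample. The Staufen2 array labelled with no number is called replicate 0, the others are replicates 1 to 5, and the preimmune arrays are replicates 1 to 6. Both groups come from the same kind of extract, with no genetic change or drug in either, and the labels do not say which brains or extracts an array came from. The p-values therefore measure only the spread among these arrays, some of it possibly technical. In RNA from whole brain, fewer cells of a type and less RNA per cell cannot be told apart.

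Septins are GTP-binding proteins that assemble into hetero-oligomers, filaments and rings at membranes and along actin and microtubules. By sequence they fall into a Septin2 group, a Septin3 group, a Septin6 group and Septin7. Septin7 is the subunit shared by the mammalian septin hexamers and octamers, and Septin9 is the Septin3-group subunit of the octamers. In neurons, septin complexes lie at branch points and at the bases of dendritic protrusions, and other septins sit on axons and synaptic vesicles.

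The arrays differed strongly in signal. The detected share of probes (detection p-value under 0.05) was 45.4% to 48.8% on Staufen2 arrays and 11.6% to 34.8% on preimmune arrays. Mean raw signal per probe was 340 to 516 on Staufen2 arrays and 69.2 to 129 on preimmune arrays. Preimmune replicates 6 and 2 stood apart with 11.6% and 17.6% of probes detected. Brain markers were present, with 7 of 7 measured neuronal and 8 of 8 progenitor markers detected on all Staufen2 arrays. The 1 liver probe measured, Apoa2, was detected on none of the Staufen2 arrays. Red blood cell markers varied between arrays, with summed raw signals of 3589 to 16556 on Staufen2 arrays and 481 to 6914 on preimmune arrays. Their part in the septin values was not tested.

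All 7 septin probes had a higher mean raw signal after Staufen2 than after preimmune immunoprecipitation, as did 99.8% of all probes. For 4 of the 7, Septin9 variant 1, Septin7, Septin8 and Septin6, every Staufen2 array lay above every preimmune array. The same held for 48.2% of all probes, and for 91.1% of the probes tested below. Raw signals include the array background, whose median was 70.0 to 81.6 on Staufen2 arrays and 63.6 to 76.3 on preimmune arrays. The number of septin probes detected was 6, 3, 5, 6, 5 and 5 on Staufen2 replicates 0 to 5, and 4, 2, 4, 3, 2 and 2 on preimmune replicates 1 to 6.

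**Figure D1:**
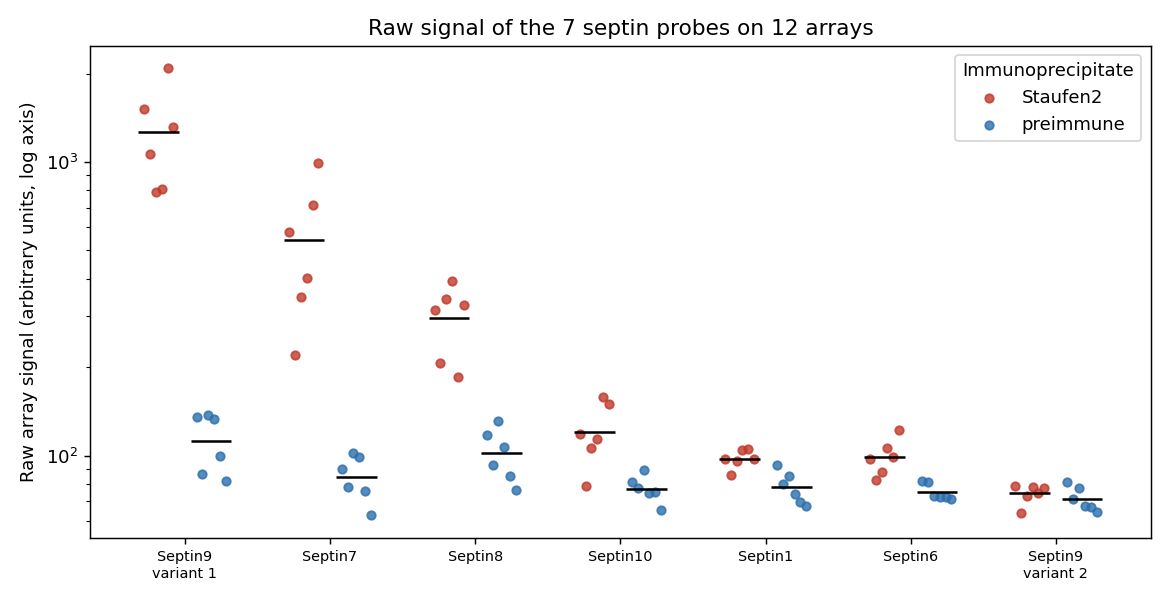
Raw signal (arbitrary units, log axis) of the 7 septin probes, with 1 point per array, Staufen2 arrays left of preimmune arrays. Septin9 variant 1 lay at 791 to 2085 on Staufen2 arrays and 82.3 to 138 on preimmune arrays, while Septin9 variant 2 lay at 64.1 to 78.9 on Staufen2 arrays and 64.3 to 81.2 on preimmune arrays.

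Because the yields differ, the tested quantity was the signal relative to the rest of the array: background-corrected, quantile-normalized log2 signal, compared with limma over the 9136 probes detected on at least 6 of the 12 arrays. Of these, 32.8% were called higher and 16.9% lower in Staufen2 at a Benjamini-Hochberg adjusted p under 0.05, 49.7% in all. The septin probes that entered the test were Septin9 variant 1, Septin7, Septin8 and Septin10. Of these 4 probes 1 was called higher, Septin7, and 1 lower, Septin8. With 4 probes, these counts are not set apart from the shares over all probes. The median log2 difference was 0.37 over the 4 septin probes and 0.32 over all tested probes. Septin7 and Septin10 passed the detection filter mainly through the Staufen2 arrays, as did most tested probes, since 8544 of the 9136 were detected on all 6 Staufen2 arrays.

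Septin7, the shared core subunit, had raw signals of 220 at the lowest, 491 at the median and 990 at the highest on the Staufen2 arrays, with 62.6, 84.1 and 102 on the preimmune arrays. The groups did not overlap. Its mean raw signal was 542 ± 281 on Staufen2 arrays and 84.6 ± 15.1 on preimmune arrays (SD, n = 6 each). It was detected on 6 of 6 Staufen2 arrays and on 3 of 6 preimmune arrays. Over the background median of each array it averaged 466 on Staufen2 arrays and 14.8 on preimmune arrays. A difference between the groups is therefore taken partly against background. Normalized, it was higher in Staufen2 by 1.57 ± 0.38 on the log2 scale (SE; limma, adjusted p = 0.00328), although 1 preimmune array reached into the Staufen2 range. Ranked among all probes of an array, it stood at a median percentile of 84.8 on Staufen2 arrays and 68.6 on preimmune arrays. The percentiles ran from 80.6 to 89.9 on Staufen2 arrays and from 16.3 to 81.2 on preimmune arrays. The normalized value follows from this rank, so the rank adds no separate check. Without the dim preimmune replicates 2 and 6 the difference was 1.34 (limma, adjusted p = 0.00494), and with array weights it was 0.67 (adjusted p = 0.0121). The detection columns carry codes in 2 consecutive runs, of 8 and 4 arrays, each holding both groups. Within the first run the difference was 1.02 (limma, adjusted p = 0.0522) and within the second 2.56 (adjusted p = 0.0512). The 2 Staufen2 arrays of the second run averaged 853 raw, and the 4 of the first run 387.

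Septin9, the octamer subunit, is represented by probes for variants 1 and 2. The variant 1 probe had raw signals of 791, 1189 and 2085 (lowest, median and highest) on the Staufen2 arrays and of 82.3, 117 and 138 on the preimmune arrays. All 6 Staufen2 arrays lay far above all 6 preimmune arrays, and all 12 detected the probe. Mean raw signal was 1263 ± 492 on Staufen2 arrays and 113 ± 25.9 on preimmune arrays (SD, n = 6 each). Relative to the rest of the array, the difference was 0.52 ± 0.32 on the log2 scale and was not called (SE; limma, adjusted p = 0.196). Of the arrays left out 1 at a time, only preimmune replicate 6 changed this call. Preimmune replicate 6 had a normalized value of 8.77, above the 7.08 to 7.69 of the other preimmune arrays, and without it the difference was 0.81 (limma, adjusted p = 0.0132). Without preimmune replicates 2 and 6 it was 0.77 (limma, adjusted p = 0.0185), and within the first run of codes 0.72 (adjusted p = 0.0405). Both of these fits also leave out preimmune replicate 6. With all 12 arrays kept, the scaling changed the call too. Among the 1683 probes detected on all 12 arrays, compared by median-centred signal over background, 28% were called higher and Septin9 variant 1 was among them, at 1.17 ± 0.27 (SE; limma, adjusted p = 0.000602).

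The probe for Septin9 variant 2 was not detected on any array. Its raw signal was 74.5 ± 5.61 on Staufen2 arrays and 71.4 ± 6.74 on preimmune arrays (SD, n = 6 each), with overlapping groups at the level of the background. Over the background median of each array it averaged -2.15 on Staufen2 arrays and 1.64 on preimmune arrays. The definitions give these as transcript variants of 1 gene, and a probe's level cannot be set against that of another probe.

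Septin8, a Septin6-group member known to bind the synaptic vesicle protein VAMP2, had raw signals of 185, 321 and 395 (lowest, median and highest) on the Staufen2 arrays and of 76.6, 100.1 and 131 on the preimmune arrays. The groups did not overlap, and all 12 arrays detected the probe. Mean raw signal was 295 ± 81.8 on Staufen2 arrays and 102 ± 20.7 on preimmune arrays (SD, n = 6 each). Relative to the rest of the array Septin8 was lower in Staufen2, at -0.90 ± 0.31 on the log2 scale (SE; limma, adjusted p = 0.0267), but at 1.92 under median centring and 2.41 with no scaling it was higher. Those 2 scalings leave the yield of the arrays in the values, and there the median difference of all tested probes was 2.22 and 2.70, with 90.7% and 96.8% of probes called higher and 2.36% and 0% called lower, so that Septin8 lay below the median probe under both, at -0.29 relative to it. Compared by median-centred signal over background, 43.3% of the 1683 probes detected on all 12 arrays were called lower. Septin8 was among them, at -0.92 ± 0.34 (SE; limma, adjusted p = 0.0221). With the quantile-normalized values of the same 1683 probes, 1012 were called lower. There Septin8 lay -0.025 from the median difference, at percentile 49.3, near the middle of these probes. Its rank within an array ran at percentiles of 72.3 to 82.9 on Staufen2 arrays and 82.6 to 91.6 on preimmune arrays. The quantile-normalized value follows from this rank, so the rank is no separate check.

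The call for Septin8 depended on single arrays. Leaving out Staufen2 replicate 0, 1, 4 or 5 gave differences of -0.87, -0.86, -0.73 and -0.85, with limma adjusted p of 0.0558, 0.0570, 0.0796 and 0.0551. With array weights the difference was -0.38 (limma, adjusted p = 0.0751). Within the first run of codes it was -0.73 (limma, adjusted p = 0.0517) and within the second -1.15 (adjusted p = 0.292). Without the dim preimmune replicates 2 and 6 the call was kept, at -0.67 (limma, adjusted p = 0.0388).

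**Figure D2:**
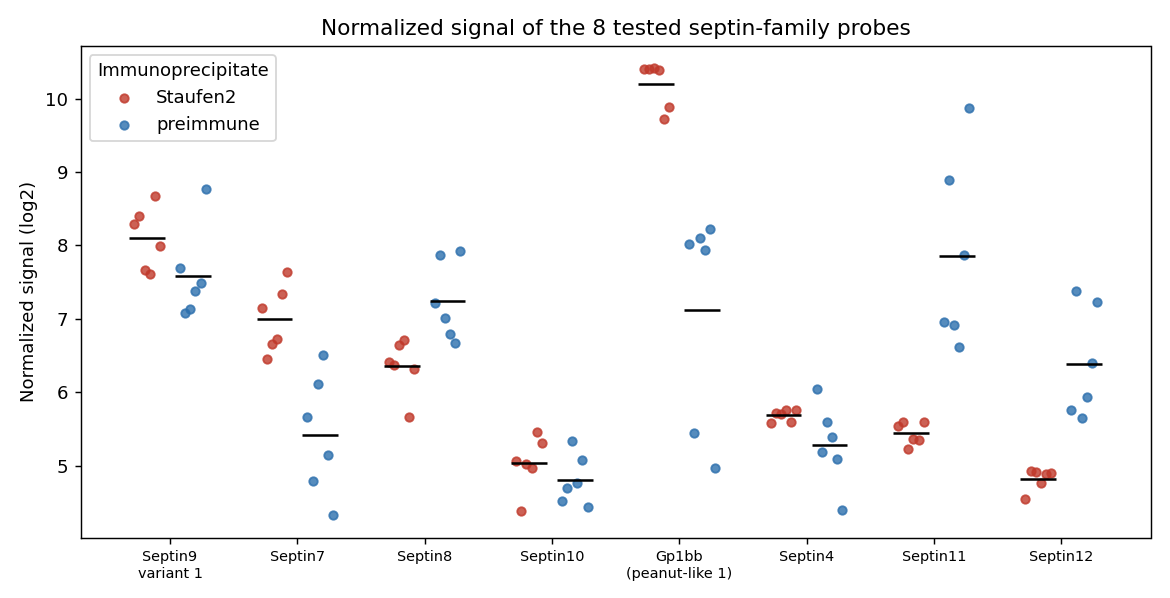
Quantile-normalized log2 signal of the 8 tested probes of the septin family, including 4 probes that carry another name, with 1 point per array, Staufen2 arrays left of preimmune arrays and the group means as lines. Septin8 lay at 5.67 to 6.71 on Staufen2 arrays and 6.67 to 7.93 on preimmune arrays, and Septin7 at 6.45 to 7.64 on Staufen2 arrays and 4.32 to 6.51 on preimmune arrays.

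Septin10 and Septin6, also of the Septin6 group, and Septin1 of the Septin2 group were dim. Septin10 had a mean raw signal of 121 ± 29.2 on Staufen2 arrays and 77.3 ± 7.87 on preimmune arrays (SD, n = 6 each). It was detected on 5 Staufen2 arrays and 1 preimmune array, the groups overlapped, and its log2 difference of 0.23 ± 0.19 was not called (SE; limma, adjusted p = 0.344). Septin6 was detected on 3 Staufen2 arrays and no preimmune array, at 99.3 ± 14.1 on Staufen2 arrays and 75.5 ± 5.07 on preimmune arrays (SD, n = 6 each). Its raw signals ran from 82.7 to 123 on Staufen2 arrays and from 71.2 to 82.3 on preimmune arrays, so the groups did not overlap, but too few arrays detected it for a test or a fold. Septin1 was detected on 4 Staufen2 arrays and 1 preimmune array, at 97.7 ± 6.94 on Staufen2 arrays and 78.3 ± 9.79 on preimmune arrays (SD, n = 6 each), with overlap. For these 3 genes the signal over background sets the limit, and a difference smaller than it was not detectable.

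In a ratio of 2 probes within an array, a shift common to all probes of that array cancels, whereas the background and a nonlinear scaling do not. Septin7 was undetected on 3 preimmune arrays, so ratios were taken to Septin9 variant 1, the septin probe with the highest mean signal among those detected on all 12. The log2 ratio of Septin8 to Septin9 variant 1 was -1.75 ± 0.77 on Staufen2 arrays and -0.34 ± 0.61 on preimmune arrays (SD, n = 6 each). It ran from -3.004 to -0.89 on Staufen2 arrays and from -0.84 to 0.79 on preimmune arrays, without overlap. The difference of -1.41 was past the threshold (exact permutation test over 924 splits, two-sided, p = 0.00216, which no split of 12 arrays into equal groups can go below, adjusted p = 0.00649 over 3 ratios). It stayed between -2.11 and -1.05 under all settings tried. Among the probes detected on all 12 arrays, Septin9 variant 1 itself lay 1.39 above the median difference. A probe at that median therefore also has a negative ratio difference, and a negative value is not particular to Septin8. How many other probes have a ratio to Septin9 variant 1 without overlap was not counted.

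The log2 ratio of Septin7 to Septin9 variant 1 was -1.11 ± 0.53 on Staufen2 arrays and -2.17 ± 1.29 on preimmune arrays (SD, n = 6 each), with overlap. The difference of 1.06 did not pass (exact permutation test, two-sided, p = 0.0779, adjusted p = 0.117), it was -0.59 with median centring or no scaling, and it passed without preimmune replicate 4, at 1.36 (exact permutation test, adjusted p = 0.0390). The ratio of Septin10 was -3.07 ± 0.54 on Staufen2 arrays and -2.79 ± 0.88 on preimmune arrays (SD, n = 6 each). Septin10 was detected on 1 of 6 preimmune arrays and not on Staufen2 replicate 1, so this ratio is mostly background over signal on the preimmune arrays. Its difference of -0.29 did not pass (exact permutation test, two-sided, adjusted p = 0.494).

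**Figure D3:**
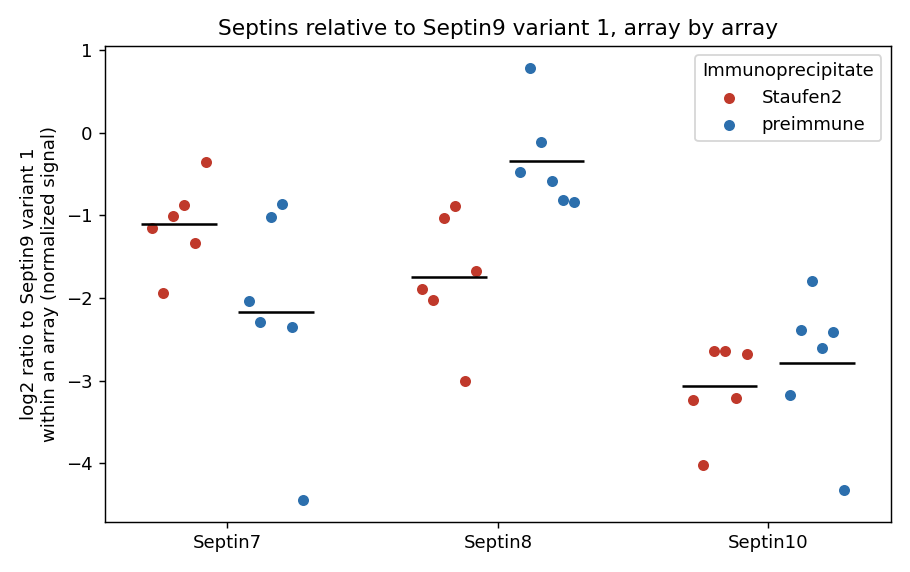
Log2 ratio of Septin7, Septin8 and Septin10 to Septin9 variant 1 within each array (normalized signal), Staufen2 arrays left of preimmune arrays, with lines at the group means. Of the 3 ratios shown, that of Septin8 is the one without overlap, at means of -1.75 on Staufen2 arrays and -0.34 on preimmune arrays. Ratios of other probes were not counted.

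The rat genome holds 13 septin genes in the RefSeq gene table used for names, and 6 of them have a probe whose definition says septin. Septin4, Septin11 and Septin12 have a probe under an older symbol or a gene number, and 4 genes, Septin2, Septin3, Septin5 and Septin14, had no probe that could be tied to them. One probe carries the symbol Gp1bb, a platelet glycoprotein subunit, but is defined as peanut-like 1, an older name of Septin5. Septin5 and Gp1bb overlap in the gene table, so which of them it measures cannot be told apart.

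The Gp1bb (peanut-like 1) probe had the largest log2 difference among the 8 tested probes of the family. Septin5, one of the genes it may measure, binds syntaxin at synaptic vesicles. The probe's raw signals were 4490, 5829 and 7632 (lowest, median and highest) on Staufen2 arrays and 69.0, 137 and 214 on preimmune arrays, 5922 ± 1196 on Staufen2 arrays and 134 ± 55.3 on preimmune arrays on average (SD, n = 6 each). It was detected on 6 Staufen2 and 4 preimmune arrays. Normalized, it was higher in Staufen2 by 3.09 ± 0.53 on the log2 scale (SE; limma, adjusted p = 0.000251), with no overlap, as for 20.9% of tested probes. Its difference exceeded that of 99.5% of tested probes. It was 2.31 without preimmune replicates 2 and 6 (limma, adjusted p = 1.9e-06) and 2.89 within the second run of codes (adjusted p = 0.100).

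Septin11, a Septin6-group protein found in dendrites, had raw signals of 148 ± 24.5 on Staufen2 arrays and 110 ± 9.52 on preimmune arrays (SD, n = 6 each) and was detected on all 12. The raw groups overlapped. Relative to the rest of the array it was lower in Staufen2, at -2.40 ± 0.49 on the log2 scale (SE; limma, adjusted p = 0.000838), with no overlap, as for 11.7% of tested probes, but was at 0.17 with median centring and 0.66 with no scaling. Among the probes detected on all 12 arrays, compared by median-centred signal over background, it was at -2.96 (limma, adjusted p = 1.0e-05). Septin12, known for its role in sperm, had raw signals of 103 ± 9.60 on Staufen2 arrays and 85.9 ± 6.76 on preimmune arrays (SD, n = 6 each). It was detected on 5 Staufen2 and 5 preimmune arrays, and the raw groups overlapped. Over background it averaged only 26.4 on Staufen2 arrays and 16.1 on preimmune arrays. It was at -1.57 ± 0.31 (SE; limma, adjusted p = 0.000759), but at 0.43 with no scaling and -0.055 with median centring. Within the second run of codes neither gene was called, Septin11 at -3.02 and Septin12 at -1.79 (limma, adjusted p = 0.0563 and 0.0795). Septin4, of the Septin2 group, had raw signals of 174 ± 25.9 on Staufen2 arrays and 80.9 ± 10.8 on preimmune arrays (SD, n = 6 each), and its log2 difference of 0.40 ± 0.25 was not called (SE; limma, adjusted p = 0.193), nor without preimmune replicate 1, at 0.59, or replicate 6, at 0.25 (adjusted p = 0.0537 and 0.366).

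**Figure D4:**
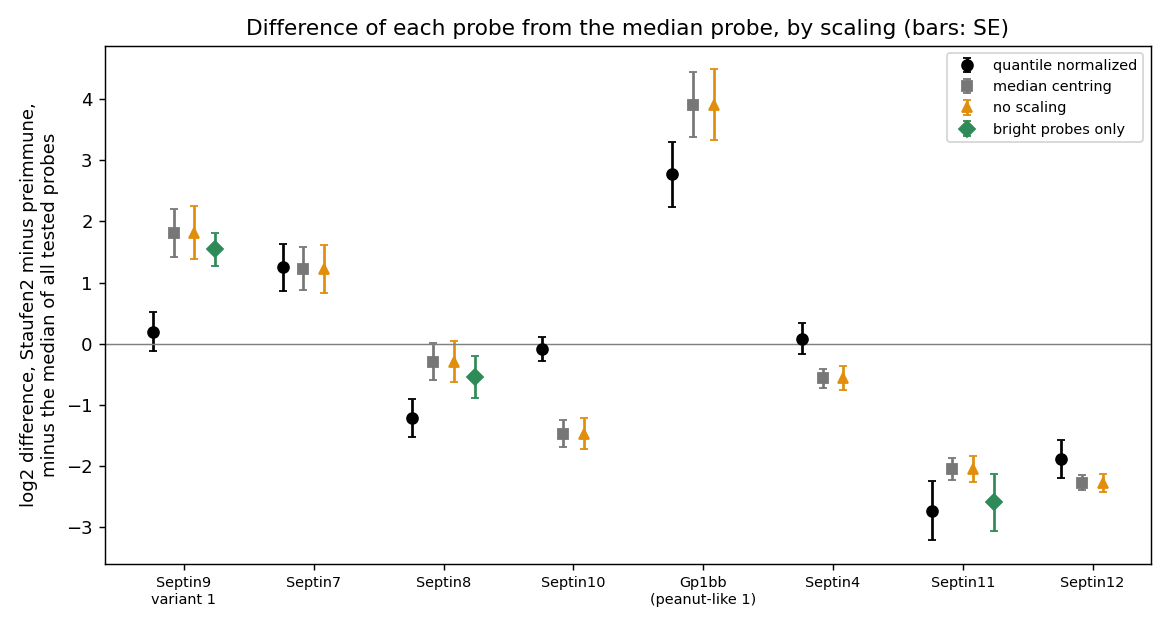
Log2 difference, Staufen2 minus preimmune, of the 8 tested septin-family probes minus the median of all tested probes of the same setting, under 4 scalings, with bars for the SE. Gp1bb (peanut-like 1) lay above the median and Septin8, Septin11 and Septin12 below it under each scaling that holds them. Septin9 variant 1 lay 0.20 above the median after quantile normalization and 1.81 above it with median centring.

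Partners of the septins were taken from a list, of which 26 genes are reported here, among them Gp1bb. Of the other 25, all had a probe and 17 were tested, with 6 called higher and 0 lower in Staufen2 by limma (1 lower at an unadjusted p under 0.05), and a median log2 difference of 0.78. With 32.8% of all tested probes called higher, 6 of 17 is near the background. Of all tested probes 16.9% were called lower, and their median log2 difference was 0.32. Whether the partners differ from all probes in these 2 respects was not tested. Cdc42, the small GTPase that acts on septins through the Borg proteins, had raw signals of 18002 ± 3622 on Staufen2 arrays and 693 ± 539 on preimmune arrays (SD, n = 6 each), and was higher by 1.14 ± 0.12 on the log2 scale (SE; limma, adjusted p = 3.7e-06).

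Of the 5 Borg proteins, which bind septins directly, Cdc42ep3 and Cdc42ep4 were called higher. Cdc42ep4 had raw signals of 1246 ± 212 on Staufen2 arrays and 102 ± 21.5 on preimmune arrays, and Cdc42ep3 had 219 ± 37.9 on Staufen2 arrays and 75.8 ± 8.45 on preimmune arrays (SD, n = 6 each). Their log2 differences were 1.45 ± 0.39 and 1.32 ± 0.20 (SE; limma, adjusted p = 0.00600 and 7.3e-05). Both were detected on 6 Staufen2 arrays, but Cdc42ep4 on 4 preimmune arrays and Cdc42ep3 on 1, so the difference of Cdc42ep3 is taken mostly against background. Cdc42ep2 was detected on 6 Staufen2 arrays and not above background on any preimmune array, with raw signals of 134 ± 20.2 on Staufen2 arrays and 75.3 ± 5.35 on preimmune arrays (SD, n = 6 each), and no fold is given for it. Cdc42ep2 passed the detection filter through the Staufen2 arrays alone. It was not called (limma, adjusted p = 0.141), and was called without preimmune replicate 6 (adjusted p = 0.000155). Both p-values set signal against background, so neither measures a difference between detected levels. Cdc42ep5, detected on 6 Staufen2 arrays and 1 preimmune array, was not called, at -0.49 ± 0.32 (SE; limma, adjusted p = 0.222), and was at -0.21 without preimmune replicate 6 and -0.74 without preimmune replicate 5. The probe of Cdc42ep1 was detected on no array. Within the second run of codes, of 4 arrays, Cdc42ep4 was at 0.86 and Stx1a, described next, at 0.37 (limma, adjusted p = 0.372 and 0.763).

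Among the SNARE proteins Stx1a, the syntaxin that binds Septin5, was higher by 1.28 ± 0.42 (SE; limma, adjusted p = 0.0187). Stx1a was detected on 6 Staufen2 arrays and 2 preimmune arrays, so its difference is taken mostly against background. Vamp2, detected on 3 of 6 preimmune arrays, and Snap25, detected on all 6, had differences of 0.78 ± 0.34 and -0.67 ± 0.32. These were not called (SE; limma, adjusted p = 0.0710 and 0.0985). Without preimmune replicate 6 both passed, Vamp2 at 1.07 and Snap25 at -0.84, and Snap25 also without preimmune replicate 5, at -0.87 (limma, adjusted p = 0.00803, 0.0363 and 0.0315), but Snap25 was at 2.85 with median centring and 3.34 with no scaling. Those 2 values lie above the medians of all tested probes there, 2.22 and 2.70. Compared by median-centred signal over background, Snap25 was at -0.12 and not called (limma, adjusted p = 0.693). The median of the 1683 probes compared in that way was -0.37. Snap25 passed with the run of codes as a block, at -0.67 (limma, adjusted p = 0.0454). The septin-binding effector Rtkn was higher by 1.26 ± 0.47 (SE; limma, adjusted p = 0.0372) but lost the call without any 1 of the 6 Staufen2 arrays or without preimmune replicate 2 or 6, with adjusted p of 0.0570 to 0.0814. Of the exocyst subunits, which tether vesicles, Exoc2 was higher by 1.27 ± 0.50 (SE; limma, adjusted p = 0.0438). It lost the call without any 1 of the Staufen2 arrays or without preimmune replicate 1 or 3, with adjusted p of 0.0502 to 0.0815, and was at 0.77 without preimmune replicate 6. Exoc1, Exoc3, Exoc5, Exoc6 and Exoc7 were tested and not called. Exoc3, at -0.60, passed with the code run as a block (limma, adjusted p = 0.0328), but was at 2.49 with median centring and 2.98 with no scaling. By median-centred signal over background Exoc3 was at -0.37, at the median of the probes compared, and not called (limma, adjusted p = 0.205). Without preimmune replicates 2 and 6, Exoc3 and Exoc7 passed at -0.63 and -0.61 (limma, adjusted p = 0.0336 and 0.0380), as they did with array weights, at -0.41 and -0.62 (adjusted p = 0.0249 and 0.00652). The glutamate transporter Slc1a3 and the nonmuscle myosin Myh10, at 1.06 ± 0.58 and 1.56 ± 0.69, were not called (SE; limma, adjusted p = 0.145 and 0.0710). Slc1a3 passed with the run of codes as a block (limma, adjusted p = 0.0348). It was at 0.56 without preimmune replicates 2 and 6 and 0.40 with array weights, and was not called (limma, adjusted p = 0.366 and 0.165). For Myh10 the call changed without preimmune replicate 5, where it was at 2.14 (limma, adjusted p = 0.0146). It changed also with array weights, at 0.59 (limma, adjusted p = 0.0306). Without preimmune replicates 2 and 6, Myh10 was at 0.43 and not called (limma, adjusted p = 0.326). The deposited detection p-values of the microtubule protein Map4 were above the threshold on all arrays despite raw signals of 308 ± 67.8 on Staufen2 arrays and 82.4 ± 11.9 on preimmune arrays (SD, n = 6 each), so Map4 was not tested.

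**Figure D5:**
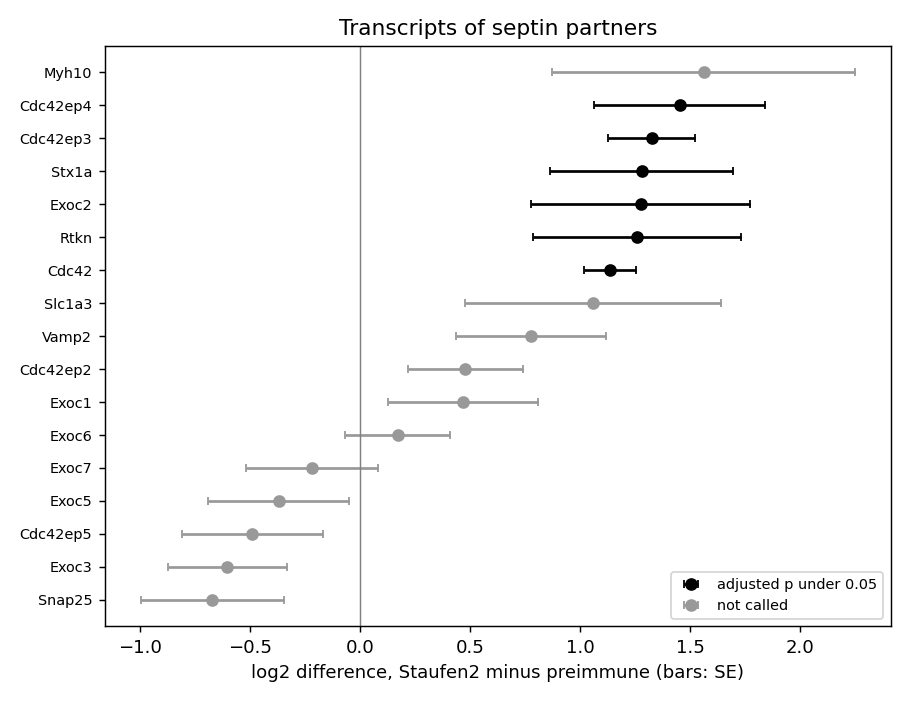
Log2 difference, Staufen2 minus preimmune, of the 17 tested partner genes after quantile normalization, with bars for the SE and black points for an adjusted p under 0.05. The called genes lie above 0, from 1.14 for Cdc42 to 1.45 for Cdc42ep4.

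Once group means were subtracted, the other genes whose normalized log2 values followed those of Septin9 variant 1 most closely over the 12 arrays were Prpf31 (Pearson's r = 0.93), Pimreg (0.91) and Pik3r4 (0.91). For Septin8 they were Tesc (0.91), Ifnar1 (0.90) and Elmod1 (0.90). Prpf31 and Pik3r4 were not above background on any preimmune array. These correlations are the highest among the tested probes and are a description of arrays that also share their depth.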

How the data were processed

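Per the labels, RNA from 6 Staufen2 and 6 preimmune immunoprecipitates was amplified and hybridised to Illumina arrays. The authors deposited raw signal intensities and detection p-values for 22226 probes, and 12 columns of bead standard errors that were not used. The column codes of the detection p-values appear in no label, so each was paired with the neighbouring signal column, as the order of the signals bore out. The submitters' processing notes name RMA, with a version not given in the sources used here, but the deposited log2 value table equals the log2 of the raw intensities for all 22226 probes (tolerance 0.0001).

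Signals were background-corrected with the normexp model (offset 16) and quantile normalized. The mean and SD of the background were inferred from the detection p-values after sorting p-values and signals separately, since some probes of each array were out of order. The 9136 probes detected (p-value under 0.05) on 6 or more of 12 arrays were tested with limma 3.58.1 in R 4.3.3 (lmFit, eBayes with trend, two-sided, Benjamini-Hochberg over all of them). Signal over background stands for depth here, and precision is limited by the number of arrays. The steps were tested on simulated arrays of equal yield in both groups, so that test does not bear on the difference in yield seen here. Ratios within arrays were compared by exact permutation.

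Symbols were updated with RefSeq's GRCr8 gene table, which served for names and neighbours alone: 8092 probes matched a current symbol, 5355 a gene number and 3400 an older symbol. Another 69 matched several older symbols, 5113 matched none and 197 had no symbol. Named genes were the septin probes, the measured septin partners and, for Septin9 variant 1 and Septin8, the 3 most correlated other genes. The members, lists and tests were chosen with earlier results of these data known. Some single-gene results are not given here. Alternatives are described below. For a gene with several probes, the one with the highest mean was used.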

Additional observations from a re-analysis of the deposited data

Results flagged for a closer look

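The normalized log2 value of Septin9 variant 1 on preimmune replicate 6 was 8.77, while the other 5 preimmune arrays lay at 7.08 to 7.69. Its gap to the nearest of them was 0.637 of the group's range, above Dixon's critical value of 0.625 for 6 samples. It was the 1 value of this kind among 44 groups of values looked at, and chance gives about 1 in 20 such groups. That array had the lowest share of detected probes, 11.6%. The raw signal of the probe there, 82.3, was the lowest of the preimmune arrays.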

How the results depend on the processing

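Array signal over background was the main limit: preimmune arrays detected 2 to 4 of the 7 septin probes, and the direction of several rested on how arrays were scaled. Median centring and no scaling keep the difference in yield, with 90.7% and 96.8% of tested probes called higher and 2.36% and 0% lower (limma; at an unadjusted p under 0.05 without scaling, all 8845 such probes were higher). Both called 4 septin probes higher and 0 lower (0 lower at an unadjusted p under 0.05), and of the partners 17 higher and 0 lower (0 unadjusted). Signs turned under median centring for Septin8 (1.92), Septin11 (0.17), Cdc42ep5 (0.49), Snap25 (2.85), Exoc3 (2.49), Exoc5 (2.42) and Exoc7 (2.07), and with no scaling for Septin8 (2.41), Septin11 (0.66), Septin12 (0.43), Cdc42ep5 (0.98), Snap25 (3.34), Exoc3 (2.98), Exoc5 (2.91) and Exoc7 (2.56). The ratio of Septin7 turned to -0.59 and that of Septin10, mostly background on preimmune arrays, was -3.28 under both.

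The calls over all probes moved with the setting too, so the septin and partner counts below are no result about these genes alone. Lower calls numbered 2796 of 9136 probes with array weights and 82 of 9925 within the second run. The other settings are given at the end of this section. Restricted to probes detected on all 12 arrays, 0 septins were called higher (0 at an unadjusted p under 0.05, of 2 tested), and of the partners 1 was higher and 2 lower. Among bright probes only, 1 partner was higher and 0 lower (0 unadjusted). With no detection filter 1 partner was lower. Array weights gave 0 septins lower (0 unadjusted) and 3 partners lower, and turned Exoc1 to -0.37. Without preimmune replicates 2 and 6, 2 septins were higher and 2 partners lower. An adjusted p under 0.01 left 0 septins lower (1 at an unadjusted p under 0.05), 3 partners higher and 0 lower (1 unadjusted). With the code run as a block, 2 partners were lower, Exoc3 and Snap25. Within the first run, 0 septins (1 unadjusted) and 1 partner were lower and Exoc1 was at -0.042. Within the second run, of 4 arrays, 0 septins were higher (1 unadjusted) and 0 lower (0 unadjusted), 2 partners were higher and 0 lower (0 unadjusted), Cdc42ep2 was at -0.088 and Exoc7 at 0.036.

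Leaving out 1 array at a time gave 1 to 2 septins higher, 0 to 1 lower (0 without Staufen2 replicate 0, 1, 4 or 5, with 1 at an unadjusted p under 0.05 each time), 4 to 7 partners higher and 0 to 1 lower (1 without preimmune replicate 5 or 6, otherwise 0, with 0 to 1 at an unadjusted p under 0.05), and ratios to Septin9 variant 1 of -1.63 to -1.12 for Septin8, 0.66 to 1.36 for Septin7 and -0.64 to -0.069 for Septin10. Array weights were not run for the ratios, since a permutation takes none.

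Same-numbered arrays did not deviate together for every number (correlations of deviations from group means of 0.189, 0.0445, 0.206, -0.104 and 0.259 for numbers 1 to 5; 4 of 10 arrays correlated best with their own number). The replicate block over these 10 arrays gave 2 septins higher and 1 partner lower, as did the fit without the block on the same 10 arrays, which was added after seeing the data (2 and 1).

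Over all probes, 3001 of the 9136 tested were higher and 1543 lower. Of the 1683 probes detected on all 12 arrays, 266 were higher and 1012 lower, or 472 and 729 as bright probes. Of 9136, the counts were 8283 and 216 with median centring, 8845 and 0 with no scaling, and 3354 and 2796 with array weights. With no filter they were 3346 and 2429 of 22226, and without preimmune replicates 2 and 6 they were 3304 and 2372 of 9791. The code run as a block gave 3158 and 1645 of 9136, and an adjusted p under 0.01 gave 2162 and 1077. Within the first run the counts were 2870 and 1874 of 9533, and within the second 1309 and 82 of 9925. The replicate block gave 2823 and 1788 of 9207, and the same 10 arrays without it 2788 and 1763. Leaving out 1 preimmune array gave 2777 to 3119 higher and 1462 to 1938 lower, of 9019 to 9094 tested. Leaving out 1 Staufen2 array gave 1732 to 1825 higher and 1266 to 1333 lower, of 7759 to 7810 tested. The cause was not tested.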
